A study of Homo sapiens with 9 samples.

Results

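The mRNA profile of cells stably overexpressing the α isoform of tissue factor pathway inhibitor (TFPIα) was compared with that of cells carrying the empty vector. Of the 9 arrays in the series, the 6 used in this comparison are 3 titled as TFPIα overexpression and 3 titled as control, assigned to their groups by title. All 9 are labelled as total RNA of SK-BR-3, a breast cancer cell line of luminal-like origin with amplified ERBB2, which was grown in RPMI1640 with heat-inactivated serum. The cells had received the pcDNA3.1/V5/His-pTOPO vector with TFPIα cDNA, with TFPIβ cDNA or without an insert. They were selected as stable pools, with puromycin by the labels and neomycin by the methods, so the control cells carry the vector and the selection as well. RNA came from 3 independent isolations per group and was hybridised to Affymetrix Human Gene 1.0 ST arrays. Each group is a single cell pool, so the spread between arrays is that between RNA isolations of that pool. The 3 arrays labelled TFPIβ entered the statistical fit and are otherwise used only to show where TFPIα differed.

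Values are log2 signals, on which a difference of 1 is a 2-fold difference, and each probe set stands for one transcript. A probe set was kept when its highest signal over the 9 arrays was at least 5, which left 17482 of 33297. The nearest probe sets on either side of this level had 5.000. The array medians lay between 4.78 and 4.88. Within a group, the arrays correlated across probe sets with r of 0.953 to 0.990, and no pair of arrays held identical values.

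The marker genes did not, as a whole, show the profile of the labelled line. KRT5 and KRT14, keratins of basal epithelium, had signals of 12.40 to 12.83 and 11.99 to 12.74 over the 9 arrays. ERBB2, the receptor gene amplified in SK-BR-3, had signals of 5.63 to 6.24, and its neighbour GRB7 had signals of 5.04 to 5.30. STARD3, PGAP3 and MIEN1, listed with ERBB2, had mean signals of 6.52, 5.39 and 7.81. Of the luminal markers, KRT8 lay between 5.68 and 6.20 and KRT19 between 4.64 and 5.25, whereas KRT18 reached 10.76. XBP1 had a mean of 9.21, and GATA3, FOXA1, SPDEF and ESR1 had means of 5.31, 4.83, 4.25 and 3.63. The 5 measured endothelial markers had mean signals of at most 5.46. Of the leukocyte markers, PTPRC and CD3E had mean signals of 2.23 and 3.50, whereas CD14 and CD68, of monocytes and macrophages, had 7.67 and 7.46. Of the 6 fibroblast markers, the proteoglycan gene DCN had signals of 9.48 to 11.14 and COL1A1 a mean of 7.07, whereas COL1A2, COL3A1, PDGFRB and LUM had means of 4.34, 4.28, 4.26 and 3.63. The groups are therefore named by their array labels, and no cell type is assigned.

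TFPI is a Kunitz-type protease inhibitor that blocks factor Xa and the complex of tissue factor with factor VIIa. TFPIα is the secreted, full-length isoform and TFPIβ is attached to the cell surface by a lipid anchor. In dividing epithelial cells, entry into S phase is marked by transcription of E2F target genes, among them the helicase subunits and replication enzymes, and by synthesis of the replication-dependent histones. The acute-phase and complement genes, in contrast, are transcribed in epithelium under inflammatory cytokines such as interleukin 1.

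Between the arrays labelled TFPIα and empty vector, 1 of 17482 probe sets (0.00572%) was higher by limma at a Benjamini-Hochberg adjusted p under 0.05 with a fold change of at least 2, and none was lower. At an unadjusted p under 0.05, limma gave 1502 higher probe sets (8.59%) and 976 lower ones (5.58%). With the replicate number as a block, limma called 0 at that threshold and gave 3545 at an unadjusted p under 0.05. All 3 arrays labelled TFPIα lay above all 3 control arrays in 14.4% of probe sets and below them in 8.85%. The arrays share replicate numbers across groups, so a difference can also be read within each of the 3 pairs. All 3 paired differences were at least 1 for 50 probe sets (0.286%) and at most -1 for 12 probe sets (0.0686%). These 62 are described by their values. An exact permutation test of 3 against 3 arrays cannot go below p = 0.1, nor a sign-flip test of 3 pairs below p = 0.25, so neither was used for single genes.

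The pairs did not contribute equally. The paired differences had a standard deviation across probe sets of 0.31 in pair 1, 0.51 in pair 2 and 0.42 in pair 3. A difference of at least 1 was reached by 107, 667 and 348 probe sets in pairs 1, 2 and 3, and one of at most -1 by 158, 381 and 206. Among the 50 probe sets, pair 1 had the smallest difference in 42, and empty vector replicate 2 was the lowest of the control arrays in 46. Without replicate 1 the number of probe sets with consistent differences was 298 in place of 62.

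**Figure D1:**
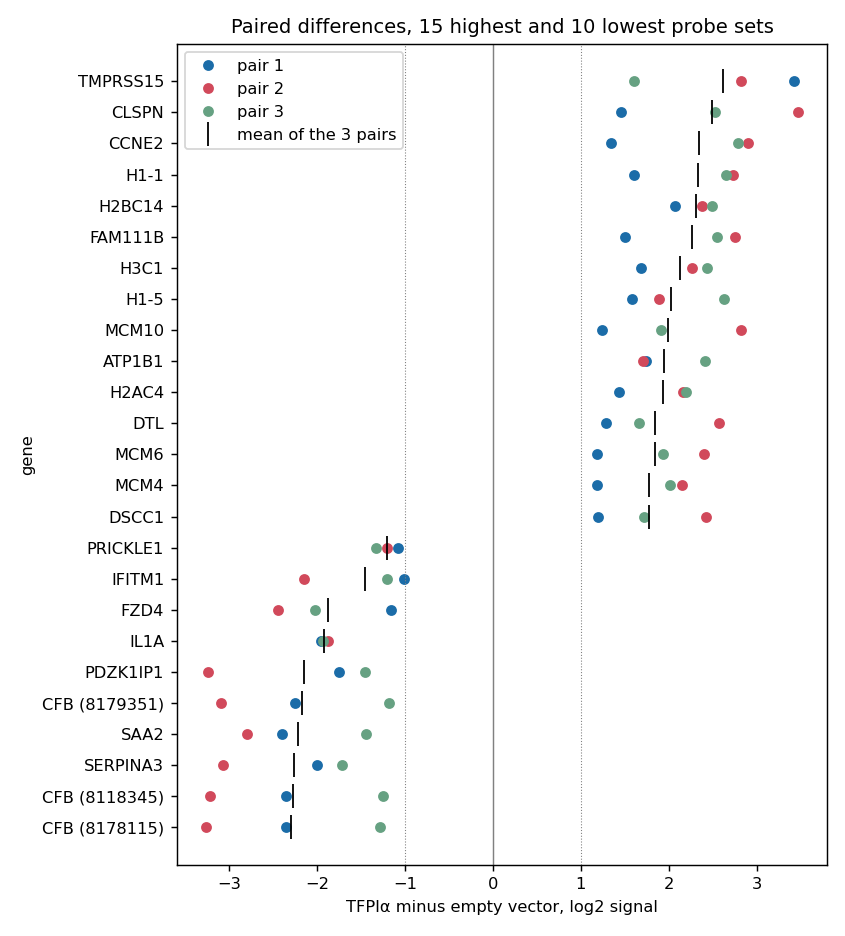
Paired differences in log2 signal (horizontal axis), TFPIα minus empty vector, for 15 named probe sets of highest mean and 10 of lowest mean (vertical axis); each coloured point is 1 pair, the bar is the mean of the 3 pairs and the dotted lines lie at 1 and -1. CLSPN ranged from 1.46 to 3.47, whereas the 3 pairs of IL1A lay between -1.96 and -1.88.

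The called transcript was ATP1B1, a regulatory subunit of the membrane pump that exchanges sodium for potassium. It lies on chromosome 1. Its log2 signals were 7.36, 7.48 and 7.43 in the arrays labelled TFPIα against 5.61, 5.77 and 5.02 in those labelled empty vector. The groups were well separated, and the TFPIα arrays lay close together. The paired differences were 1.74, 1.71 and 2.41, and the mean log2 difference was 1.95 (standard error, SE, 0.17, limma adjusted p = 0.0466). The call was lost with the replicate block (adjusted p = 0.0835), with only the 6 compared arrays (0.146), in the one-way model (0.330) and when either TFPIα replicate 1, 2 or 3, empty vector replicate 1 or 2, or TFPIβ replicate 3 was left out (0.0527 to 0.246). It was kept without empty vector replicate 3 (0.00373). The difference itself stayed between 1.73 and 2.11. In the arrays labelled TFPIβ the signals were 6.78, 6.81 and 6.82, between the other groups without overlap. The difference between TFPIα and TFPIβ was 0.62 (SE 0.17, unadjusted p = 0.00707 and adjusted p = 0.532 by limma). The other measured subunits and regulators of the pump showed small values. Of 7 members past the filter, 2 had all paired differences above 0 and 1 had all below 0 (22.6% and 18.7% over all probe sets). The members other than ATP1B1 lay between -0.27 and 0.19.

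TFPI itself was measured by probe set 8057599. Its signals were 5.66, 5.81 and 5.51 in the arrays labelled TFPIα against 5.81, 6.48 and 6.45 with empty vector, so the highest TFPIα array equalled the lowest control array to the second decimal. The log2 fold change was -0.59 (SE 0.19, adjusted p = 0.335). By the account of the authors, the transfected cDNA held the coding region alone, and probes of this array that recognise other regions of the transcript could not detect it. The deposited value is one summary over all probes of the set, so it is not a check of the transgene. For the TFPIα cells the authors report raised TFPI mRNA by qRT-PCR and more TFPI antigen in the medium than for control cells. They also report TFPI as upregulated on the arrays when signals were computed with another algorithm, PLIER. Of the tissue factor pathway, 7 of 11 genes passed the filter. F3, which encodes tissue factor, had signals of 6.46, 7.42 and 7.91 against 6.37, 6.09 and 6.07. Its 3 TFPIα arrays lay above all control arrays, though the first by only 0.08 from its pair. TFPI2, a related Kunitz inhibitor of the extracellular matrix, had 8.65, 10.22 and 10.74 against 8.56, 7.48 and 9.03, and these groups overlapped. F2R, the thrombin receptor, had a log2 fold change of -0.67 (SE 0.32). None of these differences passed the limma test.

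Genes of DNA replication recurred among the 50 probe sets. Of the 24 genes of origin licensing and the MCM helicase, all 24 passed the filter, and 22 had all 3 paired differences above 0, against 22.6% of all probe sets. None had all 3 below 0, against 18.7% of all probe sets. The median difference was 1.24, against 0.00 over all probe sets, and it was 0.69, 1.81 and 1.36 in pairs 1, 2 and 3. An unadjusted p under 0.05 was reached by 16 members, all of them higher, against 8.59% of all probe sets on that side. None passed the limma test after adjustment (lowest adjusted p = 0.335). MCM6, a subunit of the replicative helicase, had signals of 8.45, 8.65 and 9.02 with TFPIα and 7.26, 6.25 and 7.07 with empty vector. MCM4, another subunit of the same ring, had 8.35, 8.87 and 9.07 against 7.17, 6.72 and 7.06. In both genes every TFPIα array lay above every control array. MCM10, an initiation factor that activates the helicase, had 6.66, 7.07 and 7.29 against 5.42, 4.25 and 5.38. GINS1, a subunit of the GINS complex of the moving helicase, had 7.87, 7.97 and 8.15 against 6.74, 5.66 and 6.41. The log2 fold changes were 1.84 (SE 0.67) for MCM6, 1.78 (0.49) for MCM4, 1.99 (0.63) for MCM10 and 1.73 (0.58) for GINS1. CDC6, which loads the helicase, had a log2 fold change of 1.73, whereas the constitutive origin subunits ORC2 and ORC4 had 0.14 and 0.18.

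The replication enzymes and S-phase repair genes showed the same direction. All 34 members past the filter had 3 paired differences above 0 (22.6% over all probe sets), and their median was 0.96. At an unadjusted limma p under 0.05, 25 were higher (8.59% over all probe sets). CLSPN, the adaptor that couples stalled forks to the checkpoint kinase CHK1, had signals of 6.63, 7.04 and 7.29 against 5.17, 3.57 and 4.75. This was a log2 fold change of 2.49 (SE 0.85, limma adjusted p = 0.335). A second CLSPN probe set of lower signal had 1.73. EXO1, a nuclease of mismatch and break repair, had 7.86, 7.97 and 8.35 against 6.72, 5.63 and 6.61. FEN1, the nuclease that removes flaps of Okazaki fragments, had 9.27, 9.22 and 9.55 against 8.53, 7.25 and 7.68. The groups did not overlap in any of these genes, and the lowest of the 6 arrays was in each case empty vector replicate 2. POLE2, a subunit of DNA polymerase ε, had 5.40, 5.69 and 6.06 against 4.53, 3.42 and 3.98, with all control signals under the filter level. DTL, the substrate receptor that sends CDT1 for destruction in S phase, had 1.84 (0.83), DSCC1, a clamp loader component, had 1.78 (0.55) and FAM111B had 2.27 (0.79).

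The promoters of these genes are shown as a description. Sequence was not used in choosing the 50 probe sets. The licensing and S-phase lists, however, hold known E2F target genes, so matches in them do not depend on these arrays. RefSeq promoters of GRCh38.p14 were searched from 250 bases before to 50 bases after the gene start, on both strands, for the E2F letters TTTCCCGC, TTTCGCGC, TTTGCCGC and TTTGGCGC, and for CCAAT. An E2F match was held by 908 of all 27305 promoters (3.33%). Of the 44 genes on probe sets with 1 symbol among the 50, 31 had a promoter entry and 12 of these held a match (38.7%). Among these, the matches of H4C2, H4C13, EXO1 and GINS1 lay after the gene start, and that of CLSPN spanned it. Those of H4C2 and H4C13 lay in the first letters of the histone coding sequence. In the origin licensing list a match was held by 11 of 21 (52.4%), among the S-phase genes by 11 of 30 (36.7%) and in the mitosis list by 2 of 33 (6.06%). CCAAT was found in 9747 of all promoters (35.7%) and in 26 of the 31 (83.9%). Of these 26, 14 belonged to histone genes. It was not particular to the 50, as 25 of 33 promoters in the mitosis list held it (75.8%). So did 4 of the 7 promoters of genes with all paired differences of at most -1 (57.1%). The 250 bases before the start are given for 4 of the genes with an E2F match, with the matches in capitals, for MCM6 (chr2:135876444-135876693, minus strand), HELLS (chr10:94545538-94545787, plus strand), DTL (chr1:212035498-212035747, plus strand) and H2BC14 (chr6:27814772-27815021, plus strand).
MCM6: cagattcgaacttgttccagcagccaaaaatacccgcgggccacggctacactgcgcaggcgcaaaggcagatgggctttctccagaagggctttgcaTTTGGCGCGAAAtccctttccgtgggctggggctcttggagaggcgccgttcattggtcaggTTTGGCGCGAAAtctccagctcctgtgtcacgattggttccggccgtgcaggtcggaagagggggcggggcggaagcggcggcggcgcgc
HELLS: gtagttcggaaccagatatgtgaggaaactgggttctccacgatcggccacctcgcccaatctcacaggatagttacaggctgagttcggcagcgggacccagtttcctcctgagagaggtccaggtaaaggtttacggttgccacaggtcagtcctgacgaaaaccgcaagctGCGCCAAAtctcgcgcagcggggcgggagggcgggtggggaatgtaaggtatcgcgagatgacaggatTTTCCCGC
DTL: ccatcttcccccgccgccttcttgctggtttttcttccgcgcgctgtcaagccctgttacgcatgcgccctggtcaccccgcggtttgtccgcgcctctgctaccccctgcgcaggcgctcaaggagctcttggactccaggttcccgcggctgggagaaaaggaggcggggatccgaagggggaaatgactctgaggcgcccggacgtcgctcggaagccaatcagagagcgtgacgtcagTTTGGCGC
H2BC14: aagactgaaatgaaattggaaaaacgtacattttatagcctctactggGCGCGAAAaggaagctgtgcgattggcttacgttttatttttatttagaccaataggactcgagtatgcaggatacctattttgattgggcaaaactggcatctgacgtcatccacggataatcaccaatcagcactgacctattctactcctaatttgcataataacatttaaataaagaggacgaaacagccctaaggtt
In MCM6 the same run of capitals occurs at 2 places, and each holds a pair of overlapping matches on opposite strands, which gives 4. HELLS, a chromatin remodeller of replicating cells, held 2 matches and had paired differences of 1.11, 2.41 and 1.34. DTL held 1 match that ends at the base before the gene start. H2BC14, a histone gene, held 1 match on the opposite strand. A match is a description of the letters and not of binding, and the promoters of CLSPN, GINS1, GINS2 and EXO1 held 1 match each as well. Those of ATP1B1 and MCM10 held no E2F match in this window.

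The replication-dependent histone genes held the most of the 50 probe sets of any list. They encode the core and linker histones made during S phase, and most of them lie in clusters on chromosome 6. This list was added after the values were seen. Of 69 genes, 57 had a probe set of their own and 41 passed the filter. All 3 paired differences were above 0 in 34 and below 0 in 2 (22.6% and 18.7% over all probe sets), and the median was 1.23. On the higher side, 32 had an unadjusted p under 0.05 (8.59% over all probe sets). Of the 50 probe sets with all differences of at least 1, 19 carried a single histone symbol. H2AC12, which is among them, reached the filter level in TFPIα replicate 3 alone. H2BC14 had signals of 9.47, 8.76 and 9.74 in the arrays labelled TFPIα against 7.40, 6.38 and 7.25 in those labelled empty vector. H1-1, a linker histone, had 7.88, 7.39 and 8.39 against 6.28, 4.66 and 5.74. H3C1, a core histone, had 7.18, 6.78 and 7.82 against 5.49, 4.52 and 5.38. In each gene replicate 2 had the lowest signal of both groups and replicate 3 the highest TFPIα signal, and the groups did not overlap. The log2 fold changes were 2.31 (SE 0.74), 2.33 (0.68) and 2.13 (0.54), each with a limma adjusted p of 0.335. Histone genes of one class are nearly identical in their coding sequence, so probe sets of different members may share transcripts and are not independent.

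Genes of mitosis and the G2/M transition had the same direction but depended more on replicate 2. Of 39 members past the filter, 36 had all paired differences above 0 (22.6% over all probe sets). The median was 0.90, with 0.53, 1.71 and 0.48 in pairs 1, 2 and 3. At an unadjusted limma p under 0.05, 1 member was higher (8.59% over all probe sets). BUB1, a kinase of the spindle checkpoint, had signals of 7.87, 8.33 and 8.21 against 7.41, 5.97 and 7.30. FOXM1, the transcription factor of G2/M genes, had 7.60, 7.45 and 7.45 against 6.72, 5.40 and 6.63. In both, empty vector replicate 2 lay well under the other control arrays. PLK4, the kinase of centriole duplication, had a log2 fold change of 1.23 (SE 0.61), MKI67, the proliferation marker Ki-67, had 1.10 and TOP2A had 0.40 with -0.18 in pair 3. Averaged over the list, the signals were 8.39, 8.40 and 8.30 in the TFPIα arrays and 7.82, 6.71 and 7.88 in the control arrays.

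Among cyclins, inhibitors and E2F factors of G1, 15 of 24 members past the filter had all paired differences above 0 and 1 had all below 0. Over all probe sets these shares were 22.6% and 18.7%. The median of the list was 0.41. CCNE2, the cyclin E2 that starts S phase with CDK2, had signals of 6.48, 7.22 and 7.49 against 5.13, 4.32 and 4.70. CDK2 had 8.10, 7.90 and 8.35 against 7.09, 6.72 and 6.97. Every TFPIα array lay above every control array in both, with log2 fold changes of 2.35 (SE 0.89) and 1.19 (0.42). E2F7, an atypical repressor among the E2F factors, had 1.00 (0.38), whereas E2F1 had 0.25 and E2F3 0.15. Of the inhibitors, CDKN1A, which encodes p21, had 0.41 and CDKN1B, which encodes p27, had -0.20.

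The array labelled TFPIβ replicate 3 bears on all of these genes. Averaged over the 24 licensing genes, the signals were 7.38, 7.54 and 7.72 for TFPIα, 6.71, 5.88 and 6.46 for empty vector and 6.44, 5.72 and 7.66 for TFPIβ. CLSPN had 4.30, 3.68 and 7.25 and MCM6 had 6.84, 6.06 and 9.04 with TFPIβ. In these values TFPIβ replicate 3 lay at the level of the TFPIα arrays and the other TFPIβ arrays among or under the controls. In the histone list TFPIβ replicate 1, at a mean of 6.61, lay above the controls at 6.43, 6.02 and 6.32. TFPIβ replicate 3 was past every control array in 47 of the 50 probe sets, against 27 for TFPIβ replicate 1 and 2 for replicate 2. Without TFPIβ replicate 3 the SE of MCM6 was 0.32 in place of 0.67 and its adjusted p was 0.130, and limma called 0 transcripts. None of the differences between TFPIα and TFPIβ passed the test over all genes (lowest limma adjusted p = 0.532), and 821 were higher and 688 lower at an unadjusted p under 0.05. With the replicate block 1 was called, the unnamed probe set 7893355 (log2 difference -2.12, adjusted p = 0.0336). Its signals were under 3 in all TFPIα arrays, and it passed the filter through TFPIβ replicate 2 alone, so the size of this difference is uncertain. The cause of the split was not tested.

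**Figure D2:**
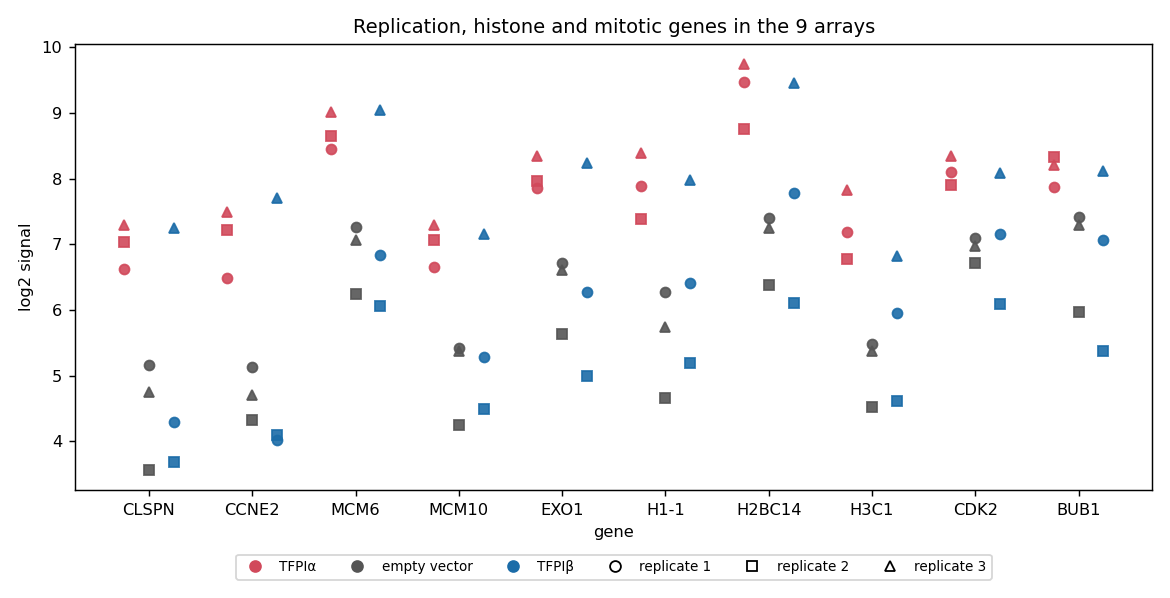
Log2 signals (vertical axis) of 10 replication, histone and mitotic genes (horizontal axis) for all 9 arrays; colours mark the group, and circles, squares and triangles mark replicates 1, 2 and 3. The TFPIα arrays lie above the control arrays in every gene shown. The triangle of TFPIβ, such as CLSPN at 7.25, is the highest of the TFPIβ arrays in each gene.

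Lower signals with TFPIα were found for genes of complement and the acute phase, for some inflammatory genes, and for several membrane proteins. Of the 12 probe sets with all paired differences of at most -1, 10 carried 1 symbol and stood for 8 genes. The groups did not overlap in 10 of the 12, against 8.85% of all probe sets on the lower side, though these 12 were chosen for their differences. The adjusted p by limma ran from 0.289 to 0.361. Lower signals than in the controls were not particular to TFPIα in these 12. TFPIβ replicates 1, 2 and 3 lay under every control array in 9, 9 and 11 of them. They lay at or below the highest TFPIα array in 3, 2 and 9. CFB, complement factor B of the alternative pathway, was measured by 3 probe sets. One of them had signals of 7.84, 7.48 and 8.62 in the arrays labelled TFPIα against 10.19, 10.74 and 9.90 in those labelled empty vector. All TFPIα arrays lay under all control arrays. The log2 fold change was -2.30 (SE 0.43, adjusted p = 0.289), and the other CFB probe sets had -2.28 and -2.17. The 3 CFB probe sets had nearly equal signals in every array, so they are not counted as independent measurements. Of 12 complement genes past the filter, none had all differences above 0 and 8 had all below 0, against 22.6% and 18.7% of all probe sets. Their median was -0.47, and 7 were lower at an unadjusted p under 0.05, against 5.58% of all probe sets. C1R and C1S, the proteases of the classical pathway, had log2 fold changes of -1.42 (SE 0.43) and -1.38 (0.37). C3, the central component, had -1.23 and the membrane regulators CD46, CD55 and CD59 had -0.42, -0.53 and -0.20.

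SERPINA3, an acute-phase antiprotease, had signals of 6.83, 7.13 and 8.0 against 8.83, 10.20 and 9.72, a log2 fold change of -2.26 (SE 0.38, limma adjusted p = 0.289). SAA2, a serum amyloid A protein, had 8.23, 8.39 and 9.74 against 10.63, 11.19 and 11.18 on one probe set, a log2 fold change of -2.22 (0.38). Its other probe set, of higher mean signal, had -0.79, and SAA1, a near-identical gene, had -0.87 (0.19), so the size for serum amyloid A is uncertain. SERPINA1, which encodes α1-antitrypsin, had -1.20 (0.44). Of 9 acute-phase and antiprotease genes past the filter, none had all paired differences above 0 and 5 had all below 0 (22.6% and 18.7% over all probe sets), with a median of -0.57. TFPIα replicate 3 lay nearest to the controls in each of the genes named here. SERPINB3, another antiprotease, had paired differences of -1.65, -1.23 and 1.76, and PTX3, a pentraxin, had -1.53, 0.17 and 1.22.

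IL1A, the proinflammatory cytokine interleukin 1α, had nearly equal paired differences. Its signals were 5.01, 5.78 and 5.85 in the arrays labelled TFPIα against 6.97, 7.67 and 7.78 with empty vector, with paired differences of -1.96, -1.88 and -1.93. The log2 fold change was -1.92 (SE 0.31, adjusted p = 0.289, and 0.0835 with the replicate block, by limma). Other members of the interleukin 1 family went different ways, with the decoy receptor IL1R2 at -1.37 (SE 1.00) and IL33, whose control signals were all under the filter level, at 1.30 (0.56), and in both the groups overlapped. Of 22 genes of NF-κB, its inhibitors and its targets, 9 had all paired differences below 0 and 1 had all above 0 (18.7% and 22.6% over all probe sets), with a median of -0.25. At an unadjusted p under 0.05, 4 were lower and 2 were higher (5.58% and 8.59% over all probe sets). SOD2, the mitochondrial superoxide dismutase and a target of NF-κB, had signals of 10.34, 10.41 and 10.91 against 11.42, 11.77 and 11.44. TNFAIP2, another target, had 7.29, 7.23 and 7.41 against 8.03, 7.88 and 7.91. The groups did not overlap in either gene, and the log2 fold changes were -0.99 (0.19) and -0.63 (0.10). RELA, the main activating subunit, had -0.03 and REL had -0.28. Chemokines and other cytokines were mixed. Of 16 past the filter, 2 had all paired differences below 0 and 1 had all above 0 (18.7% and 22.6% over all probe sets). Their median was -0.31, with -0.35, -0.39 and 0.15 in pairs 1, 2 and 3. The paired differences were -1.41, 1.58 and 2.03 for IL6 and -1.85, 0.21 and 0.69 for CXCL8.

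Interferon-stimulated and antigen presentation genes showed smaller values. Of 40 interferon-stimulated genes, 19 had all paired differences below 0 and 1 had all above 0 (18.7% and 22.6% over all probe sets), with a median of -0.17, and 6 were lower at an unadjusted p under 0.05 (5.58% over all probe sets). IFITM1, which restricts the entry of viruses, had signals of 5.96, 4.57 and 4.70 against 6.97, 6.72 and 5.90. Here TFPIα replicate 1 lay above empty vector replicate 3, so the groups overlapped although every pair differed by at least 1.01. Of 13 class I antigen presentation genes, 7 had all paired differences below 0 and 3 had all above 0 (18.7% and 22.6% over all probe sets), with a median of -0.28. ERAP1, which trims peptides in the endoplasmic reticulum, had a log2 fold change of -0.63 (SE 0.15). STAT4 and STAT3, signal transducers of cytokine receptors, had -0.95 (0.24) and -0.38 (0.15), and neither passed the limma test.

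In the calprotectin genes and the zinc importer SLC39A8, the differences depended on TFPIα replicate 3. Of 12 S100 genes past the filter, 3 had all paired differences above 0 and 3 had all below 0, with a median of 0.10. Of 26 zinc transporters and metallothioneins it was 5 above and 4 below, with a median of -0.05. Both lists lay near the 22.6% above and 18.7% below of all probe sets. S100A9, a subunit of calprotectin, had signals of 7.36, 6.76 and 9.62 in the arrays labelled TFPIα against 10.20, 9.59 and 9.98 with empty vector. S100A8, its partner, had 10.28, 9.66 and 11.78 against 11.98, 11.84 and 11.98. SLC39A8 had 8.63, 8.51 and 10.26 against 10.95, 10.83 and 10.41. In each of them TFPIα replicate 3 lay near the controls, in S100A9 above the lowest of them, and the other TFPIα arrays lay well below. All TFPIβ arrays lay under all control arrays in these genes, with SLC39A8 at 9.39, 9.08 and 9.07. Over all arrays the log2 fold changes were -2.01 (SE 0.62), -1.36 (0.45) and -1.60 (0.42), each with a limma adjusted p of 0.335. Without TFPIα replicate 3 they were -2.86, -1.96 and -2.16, and limma called them lower (adjusted p = 0.0297, 0.0400 and 0.0297), as it did the SAA2 probe set (-2.69, adjusted p = 0.0297). Another zinc importer, SLC39A14, had -0.94 (0.19), whereas SLC30A1, which exports zinc, had 0.94 (0.25). SLC7A2, which carries cationic amino acids into cells, had -1.05 (0.36). None of these last 3 passed the test.

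**Figure D3:**
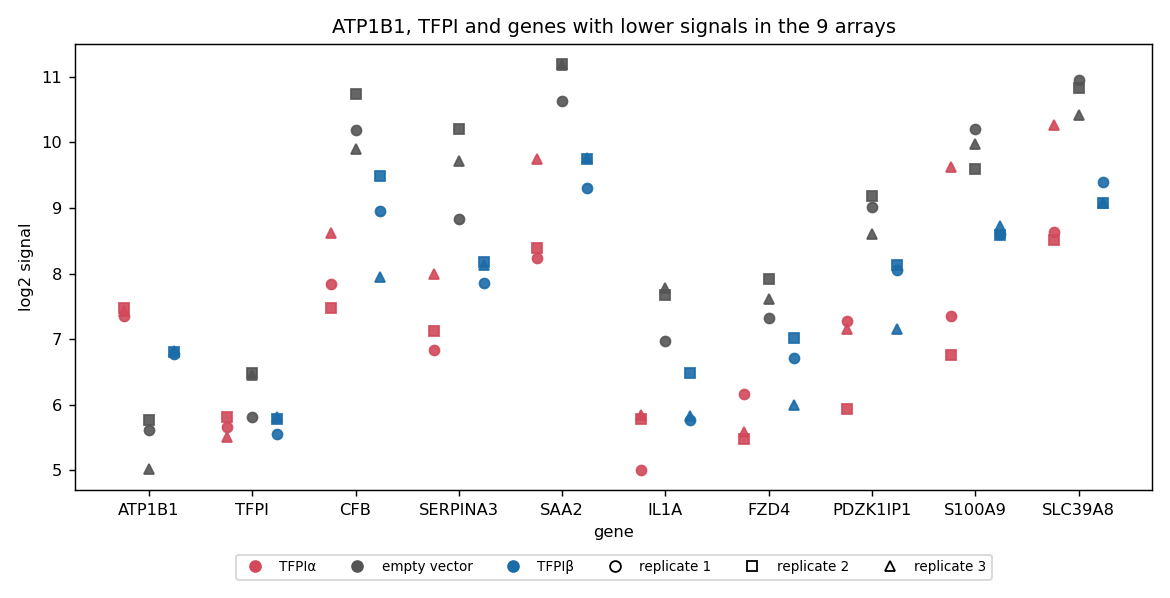
Log2 signals (vertical axis) of ATP1B1, TFPI and 8 genes with lower signals in the TFPIα arrays (horizontal axis) for all 9 arrays; colours mark the group, circles, squares and triangles mark replicates 1, 2 and 3, and CFB and SAA2, with several probe sets, are shown by the one with the lowest difference. ATP1B1 is the gene shown whose TFPIα arrays, at 7.36 to 7.48, lie above its control arrays, and in S100A9 and SLC39A8 the triangle of TFPIα lies near the control arrays.

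FZD4 and PRICKLE1, a Wnt receptor and a component of planar cell polarity, were also among the 8 genes. FZD4 had signals of 6.16, 5.48 and 5.58 against 7.32, 7.92 and 7.61, and PRICKLE1 had 6.06, 5.43 and 5.26 against 7.14, 6.64 and 6.59. The groups were separate in both, with log2 fold changes of -1.88 (SE 0.29) and -1.20 (0.30). The Wnt and frizzled list as a whole was mixed. Of 22 members past the filter, 4 had all paired differences above 0 and 3 had all below 0 (22.6% and 18.7% over all probe sets). The median was -0.04. PDZK1IP1, a small membrane protein of epithelia, had signals of 7.27, 5.94 and 7.16 against 9.01, 9.18 and 8.61, a log2 fold change of -2.15 (0.39, limma adjusted p = 0.289). Of the 7 promoters of the lower genes with an entry, that of PDZK1IP1 alone held an NF-κB motif, which 5.72% of all promoters held.

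Among epithelial genes, TGM1, a transglutaminase of the cornified envelope, had signals of 5.60, 5.09 and 5.55 against 6.39, 7.19 and 6.56. MUC1, a membrane mucin, had 7.84, 7.0 and 7.36 against 8.76, 9.17 and 8.28. ITGB4, the hemidesmosome integrin β4, had 8.61, 8.45 and 8.44 against 9.01, 9.69 and 9.39. Every TFPIα array lay below every control array in these genes, with log2 fold changes of -1.30 (SE 0.31), -1.34 (0.36) and -0.86 (0.27). LAMB1, a laminin chain, had -0.85 (0.18). The lists around them had medians nearer to 0. Keratins had a median of -0.14, squamous differentiation genes -0.11, and integrins, laminins and hemidesmosome genes -0.06. Of the 22 genes of the last list, 5 lay above 0 in all pairs and 5 below (22.6% and 18.7% over all probe sets). FN1, fibronectin of the matrix, had 7.55, 9.34 and 10.42 against 6.73, 7.02 and 8.66, with overlapping groups. DCN, listed as a fibroblast marker, had 9.85, 9.68 and 10.32 against 10.52, 11.14 and 10.91, a log2 fold change of -0.90 (0.20). The summed level of the 6 fibroblast markers, most of it DCN, was 9.91 to 10.51 with TFPIα and 10.68 to 11.31 with empty vector, on the log2 scale. The mean differences were -0.80 for COL1A1, 0.38 for LUM, 0.03 for COL1A2, -0.05 for COL3A1 and -0.04 for PDGFRB. That of the 4 measured leukocyte markers was 8.19 to 8.93 against 8.54 to 9.59. COL1A1, the defining collagen, had overlapping groups, and 3 of the 6 fibroblast markers passed the filter. The part of these markers in the lower genes was not tested, and in total RNA fewer cells of a type and less RNA per cell cannot be told apart.

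Among IGF receptors and binding proteins, 2 of 9 members past the filter had all paired differences above 0 and 4 had all below 0, with a median of -0.11. Of 9 EGF receptor family genes it was 1 above and 2 below, with a median of -0.09. Over all probe sets it was 22.6% above and 18.7% below. IGFBP3, which binds insulin-like growth factors, had signals of 6.45, 6.70 and 7.36 against 5.45, 5.60 and 5.87, a log2 fold change of 1.20 (SE 0.23, adjusted p = 0.289). IGF1R, their receptor, had 6.82, 6.67 and 6.92 against 7.30, 7.52 and 7.58, a log2 fold change of -0.66 (0.12, adjusted p = 0.289). Another IGF1R probe set, of slightly lower mean signal, had -0.29, so the size for this gene is uncertain. The groups did not overlap in the IGFBP3 probe set or the first of IGF1R, and neither gene passed the limma test. Of 29 immediate early and MAPK feedback genes, 9 had all paired differences above 0 and 1 had all below 0 (22.6% and 18.7% over all probe sets). Their median was 0.22, with medians of -0.04, 0.56 and 0.34 in the pairs. EGR1 and ETV4, transcription factors downstream of MAPK, had 1.19 (0.43) and 1.16 (0.44), and the EGR1 groups overlapped.

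The 6 metabolic genes named first were chosen for the size of their differences. SCD and FASN, enzymes of fatty acid desaturation and synthesis, had log2 fold changes of 0.76 (SE 0.21) and 0.73 (0.25). ACSL1, which activates fatty acids, and UGCG, which makes glucosylceramide, had -1.09 (0.26) and -0.94 (0.17). HK2, the inducible hexokinase, had -0.68 (0.18), and HSD17B2, which inactivates estradiol, had -1.07 (0.38). None passed the limma test, and the groups did not overlap, which held for 14.4% of all probe sets on the higher and 8.85% on the lower side. Over all probe sets, 22.6% had all paired differences above 0 and 18.7% had all below 0. Of 20 cholesterol synthesis genes, 10 had all paired differences above 0 and 3 had all below 0, with a median of 0.21. Of 25 respiratory chain genes, 13 had all above 0 and 1 had all below 0, with a median of 0.08. Of 31 genes of ATF4 and the unfolded protein response, none had all above 0 and 11 had all below 0, with a median of -0.29, while pair 2 had a median of 0.03. DNAJB9 and HERPUD1, induced by stress of the endoplasmic reticulum, had -0.81 (0.23) and -0.66 (0.20). Ribosomal protein genes had a median of -0.02 and p53 targets one of -0.01.

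**Figure D4:**
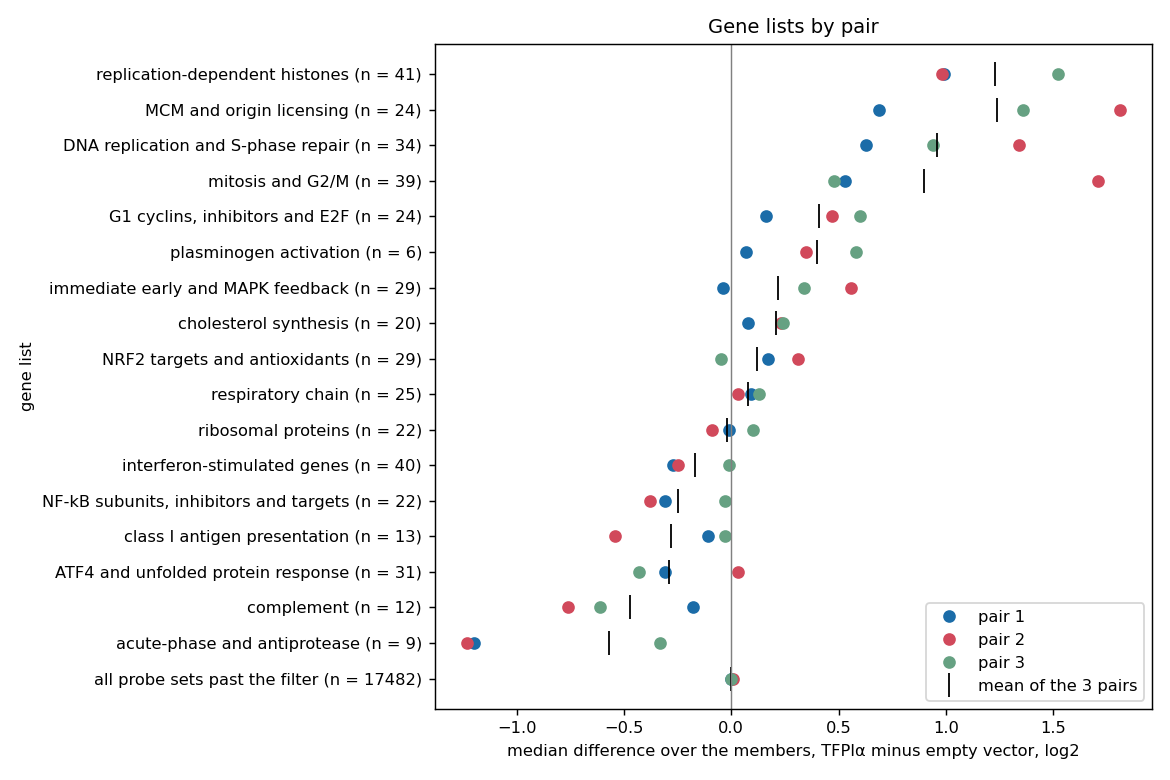
Median difference in log2 signal, TFPIα minus empty vector (horizontal axis), over the members past the filter of 17 gene lists and over all probe sets (vertical axis); coloured points are the medians within pairs 1, 2 and 3 and the bar is the median of the mean over pairs. The licensing list lies at 0.69 to 1.81 in the pairs and the complement list at -0.76 to -0.18, while all probe sets lie between 0.00 and 0.01.

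The remaining named genes with consistent differences belong to none of these groups. TMPRSS15, which encodes enteropeptidase of the duodenum, had the highest mean difference, with signals of 7.16, 5.76 and 5.31 in the arrays labelled TFPIα against 3.72, 2.93 and 3.70 with empty vector. The control signals lay under the filter level, and in TFPIβ the signals were 7.13, 5.87 and 3.56, so the spread between replicates was wide (log2 fold change 2.62, standard error 0.84, limma adjusted p = 0.335). PEG10, an imprinted gene derived from a retrotransposon, had 7.90, 7.90 and 7.54 against 6.69, 6.16 and 6.51. EMP2, an epithelial membrane protein, had 7.32, 7.0 and 7.22 against 6.11, 5.32 and 6.18. Both had separate groups, with log2 fold changes of 1.33 (0.21, adjusted p = 0.289) and 1.31 (0.39, adjusted p = 0.335).

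Across the 17482 probe sets, the paired differences correlated with r of 0.282 between pairs 1 and 2, 0.320 between pairs 1 and 3 and 0.612 between pairs 2 and 3. Probe sets are not independent replicates, and each array enters a single pair.

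**Figure D5:**
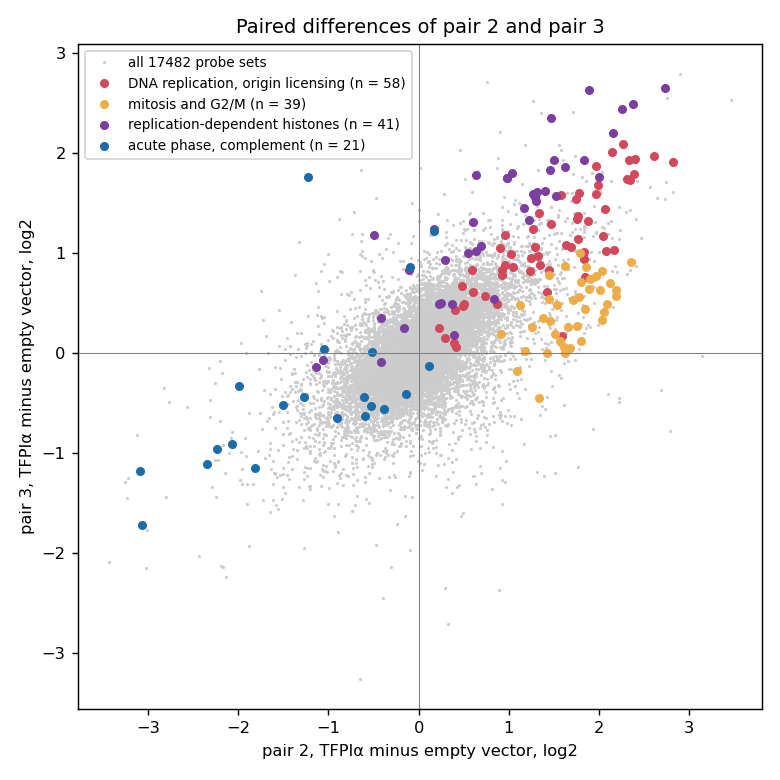
Paired difference in log2 signal, TFPIα minus empty vector, in pair 2 (horizontal axis) and pair 3 (vertical axis) for all 17482 probe sets in grey, with replication, mitotic, histone, and acute-phase and complement genes in colour. Most replication and histone genes lie above 0 in both pairs, mitotic genes are farther from 0 in pair 2 (median 1.71) than in pair 3 (median 0.48), and r across all probe sets was 0.612.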

How the data were processed

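Total RNA, SK-BR-3 by its label, was hybridised to Human Gene 1.0 ST arrays of Affymetrix, 3 per group, and signals were computed with RMA in the Partek Genomics Suite by the authors (versions not given in the sources used here). The deposited values are log2 signals, 1 per probe set, normalised and unfiltered; the log base was read from their range. RMA equalises the distributions of the arrays, so a shift common to all genes cannot be seen, and fold changes of dim probe sets are compressed. Depth does not apply to arrays, and their number limits the precision.

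The paired arrays were compared as differences within a replicate number. A linear model without covariates was fitted to all 9 arrays by limma 3.58.1 under R 4.3.3 with moderated variances, Benjamini-Hochberg adjusted over the 17482 probe sets past the filter, and a call needed at least a 2-fold difference as well as an adjusted p below 0.05. The methods name a 1-way ANOVA and a false discovery rate of 10%, which were run as alternatives. After subtraction of group means, the 9 pairs of same-numbered arrays from separate groups correlated at 0.137 to 0.594. The 18 differently numbered pairs lay at -0.512 to 0.266, so the ranges overlap. Same-numbered arrays of TFPIα and empty vector had only 0.137 to 0.252, and TFPIα replicate 2 had 0.162 with empty vector replicate 3. The numbers were used as pairs, but for this comparison the pairing is weak. The fit was tested on simulated data. Figures used matplotlib 3.10.9 in Python 3.11.15.

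Of the probe sets past the filter, 11838 carried 1 gene symbol, 1150 several and 4494 none. Symbols came from the platform annotation, updated through RefSeq, and each gene was represented by the probe set with the highest mean signal unless stated. Named genes were TFPI and ATP1B1, the 15 highest and 15 lowest consistent probe sets with 1 symbol (10 were available on the lower side), up to 3 members with the largest mean difference of one sign in each of 46 gene lists, the markers and any called gene. Further list members were named as examples after their values were seen. The comparison, its members and the lists were chosen with earlier results of these data known. RNA isolations are from single pools, so p-values measure the spread between isolations. Columns used were all 9 of the deposited table. Alternatives were other filters, centring, variance models, the replicate block, subsets of arrays, and each of the 6 compared arrays or TFPIβ replicate 3 left out.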

Additional observations from a re-analysis of the deposited data

Results flagged for a closer look

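The median difference over the 35 glycolysis and hypoxia genes past the filter was 0.04 between the arrays labelled TFPIα and empty vector. It had one sign in all 3 pairs (0.12, 0.08 and 0.08) and the opposite sign in the pairs of TFPIβ with empty vector (-0.02, -0.05 and -0.06). The median over 6 luminal epithelial markers was -0.11 with TFPIα (-0.02, -0.09 and -0.08 in the pairs) and had the opposite sign with TFPIβ (0.17, 0.15 and 0.03). Both comparisons use the same control arrays, the sizes are small, and the difference between the isoforms was not tested for these lists.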

How the results depend on the processing

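The count of called transcripts, 1, was 0 with the replicate block, in the one-way model, with only the 6 compared arrays with or without the block, without a filter and with centred arrays, and it ran from 0 to 4 when single arrays or replicate numbers were left out. TFPIβ replicate 3 was left out after the data had been seen, which gave 0. With the replicate block and an adjusted p under 0.10 it was 5, namely ATP1B1, IL1A, NEDD4L (log2 fold change -1.01) and the unnamed probe sets 7893810 (1.40) and 7893355 (-1.43), each with a limma adjusted p of 0.0835. Between TFPIα and TFPIβ the replicate block gave 1 in place of 0, and no other setting run for that comparison gave a call. The count of 62 consistent probe sets was 254 at a fold of 1.5 in each pair, 252 without pairing but with separate groups and a mean difference of at least 1, and 78 to 298 without single replicate numbers. Of 996 values of the 83 named results under other settings, none changed direction. ATP1B1 lost its call in 11 of them, and 4 results gained one. Of 360 values of the 45 list medians, 75 moved by more than the standard deviation of the pairs and 45 had the other sign. Signals under 5, as in all controls of TMPRSS15, POLE2, IL33 and AKR1B10, lie near background and limit those fold changes. The same holds for H2AC8, H2AC12, H4C13, ATAD5 and ESCO2. H2AC12, IL33 and the unnamed probe set 7893907 reached 5 in TFPIα arrays alone, so the filter kept them through the higher group. The count of consistent probe sets was 68 without a filter and 57 with a highest signal of at least 6.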

Other observations

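Of the 50 probe sets with all paired differences of at least 1, 4 have no gene symbol in the annotation and 2 have several. The unnamed probe set 7893810 had log2 signals of 6.26, 6.86 and 6.80 in the arrays labelled TFPIα against 4.83, 5.16 and 5.74 with empty vector, which is a difference of 1.40 (SE 0.28, limma adjusted p = 0.289). In the arrays labelled TFPIβ it had 5.12, 5.37 and 5.83. The unnamed probe set 7893355 had 2.65, 2.92 and 1.62 with TFPIα, 3.73, 4.65 and 3.08 with empty vector and 4.43, 5.18 and 3.91 with TFPIβ. It passed the filter through 1 array.

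Among apoptosis genes, 6 of 26 members past the filter had all paired differences above 0 and 4 had all below 0, near the 22.6% and 18.7% of all probe sets, with a median of 0.11. CASP6, an executioner caspase, had signals of 6.48, 6.51 and 6.43 against 6.21, 5.80 and 5.65, and CFLAR, an inhibitor of death receptor signalling, had 6.79, 6.55 and 6.54 against 6.99, 7.44 and 7.04. The groups were separate in both, with log2 fold changes of 0.59 (SE 0.14) and -0.53 (0.20), and neither passed the limma test. Of 29 NRF2 targets and antioxidant genes, 10 had all paired differences above 0 and 3 had all below 0 (22.6% and 18.7% over all probe sets), with a median of 0.12. GCLM, which limits glutathione synthesis, had a log2 fold change of 0.84 (0.28) and AKR1B10, an aldo-keto reductase, had 0.99 (0.31).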
